A study of Mus musculus with 9 samples.

Results

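The genes described here encode the machinery of mitochondrial respiration: subunits and assembly factors of the respiratory chain and ATP synthase, proteins of the mitochondrial ribosome, and the TIM and TOM translocases that import proteins into the organelle. They were chosen by symbol among the protein-coding genes of GENCODE M21, and 220 annotated genes met the rule, of which 59 were among the 5301 genes of the expression table. Of the 59, 55 are encoded in the nucleus and 4 (mt-Co1, mt-Co2, mt-Co3 and mt-Nd5) in mitochondrial DNA. The rule read gene names and no expression value, although the group of genes was proposed with earlier results of these data known. However, the table itself held a selected part of the transcriptome: all 5301 genes moved the same way with H4 and H6, and each passed an adjusted p of 0.05 when the hairpins' mean was set against control (limma). That a member differed from control was therefore given by its presence in the table. The selection did not fix whether a gene was higher or lower, but the table holds no gene on which the hairpins opposed each other, which limits the differences between them.

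Total RNA was sequenced from 6DT1 cells, a mouse mammary cancer line derived from an MMTV-Myc tumor, to ask how the transcriptome changes when Resf1 is depleted. The cells carried a scramble shRNA (shControl) or 1 of the Resf1 shRNAs H4 and H6 (shH4 and shH6), with 3 libraries per group. All 3 lines were labelled genotype wildtype, had received a lentiviral shRNA vector, and were selected and grown with puromycin in DMEM with serum. Each line was seeded in triplicate dishes, so the hairpin and the transduced line cannot be told apart, and the p-values measured only the spread between dishes.

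Oxidative phosphorylation needs both genomes. The mitochondrial DNA encodes a small set of membrane subunits of complexes I, III, IV and V, which the mitochondrial ribosome translates inside the organelle. All other subunits, all mitochondrial ribosomal proteins, the assembly factors and the translocases are encoded in the nucleus, made in the cytosol and imported. The heavy strand of mitochondrial DNA is transcribed as a long precursor that is cut into separate mRNAs, so the levels of the mature mRNAs depend on both synthesis and decay. These are bulk measurements on one cultured line, in which fewer cells of a type and less RNA per cell cannot be told apart.

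Resf1 (chr6:149309414-149335663, GRCm38) averaged 1585 ± 29.3 normalized counts in shControl libraries, 982 ± 31.7 with shH4 and 1121 ± 8.88 with shH6 (SD, n = 3), which is 38.1% and 29.3% lower than control. Each library held an estimated 10.5 to 19.9 M reads over the listed genes, and the lowest member of a library still rested on 99 to 175 reads. In each of the 9 within-group pairs, the spread between replicates was larger than the sampling noise of the estimated read numbers (chi-square divided by the number of genes, 2.40 to 7.47). Of the 27 markers of epithelial, fibroblast, leukocyte and endothelial cells that were looked up, 7 were in the table. The epithelial pair Krt8 and Krt18 summed to between 26580 and 29000 normalized counts in shControl, 22383 and 23860 in shH4, and 24790 and 27870 in shH6. The leukocyte pair Cd68 and Itgb2 summed to between 3482 and 3666 in shControl, 2362 and 2513 in shH4, and 2856 and 3053 in shH6. Pdgfra, the fibroblast marker, lay between 70 and 108 in shControl, 119 and 162 in shH4, and 128 and 157 in shH6, and the endothelial pair Pecam1 and Cdh5 between 20 and 31, 173 and 208, and 26 and 31. The other 20 markers were not analysed here, and the part of these shifts in the values below was not tested.

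The 4 mitochondrially encoded mRNAs are shown first by their annotated ends. Whether these ends bounded what was counted for each is not given in the sources used here. The first 45 and the last 45 bases of each were read from GRCm38, with the first codon and the stop codon in capitals.
mt-Co1 start (chrM:5328-6872, plus strand): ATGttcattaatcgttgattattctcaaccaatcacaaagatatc
mt-Co1 end: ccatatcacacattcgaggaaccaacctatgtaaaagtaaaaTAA
mt-Co2 start (chrM:7013-7696, plus strand): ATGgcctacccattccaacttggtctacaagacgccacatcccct
mt-Co2 end: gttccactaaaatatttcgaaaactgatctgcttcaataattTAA
mt-Co3 start (chrM:8607-9390, plus strand): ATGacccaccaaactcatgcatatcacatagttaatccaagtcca
mt-Co3 end: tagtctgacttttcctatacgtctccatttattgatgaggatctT
mt-Nd5 start (chrM:11742-13565, plus strand): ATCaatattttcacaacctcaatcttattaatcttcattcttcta
mt-Nd5 end: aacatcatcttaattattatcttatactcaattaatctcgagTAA
The annotated mt-Co1, mt-Co2 and mt-Nd5 are whole numbers of codons, 515, 228 and 608. The mt-Co3 gene is 784 bases, which is 261 codons and 1 base left over. That base is the T in capitals, and the stop codon of this mRNA is completed by the added poly(A) tail. mt-Nd5 is annotated from an ATC codon, an alternative start that mitochondria use. The annotation places 3 bases of mt-Co1 on the opposite strand of a tRNA gene (mt-Ts1), 1 base of mt-Co3 inside mt-Atp6, and 14 bases of mt-Nd5 opposite mt-Nd6. The libraries were stranded, but whether strand was used in counting is not given in the sources used here, nor is the handling of reads shared with nuclear copies of mitochondrial DNA.

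The table held 4 of the 13 annotated mitochondrial mRNAs, and all 4 were lower in both KD lines. mt-Co1, the catalytic core subunit of cytochrome c oxidase (complex IV), was at 230900, 225500 and 219400 normalized counts in the shControl libraries, at 170600, 162900 and 166300 in shH4, and at 156400, 158300 and 143000 in shH6. Every KD library lay below every control library, and the 3 shH6 libraries also lay below the 3 shH4 libraries. The difference of mt-Co1 between the hairpins did not pass the test (limma, adjusted p = 0.147). Separation from control was common: both KD groups lay apart from control in 86.4% of all 5301 listed genes. Among the 59 members it held in 53 (89.8%). Relative to control, mt-Co1 fell by 0.43 ± 0.051 (SE) on the log2 scale in shH4 and by 0.56 ± 0.051 in shH6 (limma, adjusted p = 2.11e-06 and 1.42e-07).

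mt-Co3, another core subunit of the same enzyme, followed the same order. Its libraries read 75320, 71550 and 74010 in shControl, 56900, 54040 and 56920 in shH4, and 51800, 52990 and 50750 in shH6, with no overlap between any pair of groups. Against control it moved by -0.40 ± 0.039 with shH4 and by -0.51 ± 0.039 with shH6 (limma, adjusted p = 3.45e-07 and 2.43e-08). mt-Co2, which carries the copper site that accepts electrons from cytochrome c, was at 45920, 45640 and 43160 in shControl, 34560, 34640 and 36670 in shH4, and 34980, 35360 and 32050 in shH6. Here the KD libraries were all below control but the hairpins overlapped, and the changes were -0.35 ± 0.044 and -0.40 ± 0.044 (limma, adjusted p = 4.20e-06 and 9.55e-07).

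mt-Nd5, a proton-pumping membrane subunit of complex I, moved least. It was at 8765, 9499 and 8576 in shControl, 8364, 8070 and 8265 in shH4, and 7756, 7365 and 8009 in shH6. The groups did not overlap, but the gap between the lowest control and the highest shH4 library was small beside the control SD of 488. Against control it moved by -0.12 ± 0.041 with shH4 and by -0.21 ± 0.041 with shH6 (limma, adjusted p = 0.0128 and 0.000216). The shH4 call was lost without shControl replicate 2 (-0.07, adjusted p = 0.0878) and when libraries were scaled to their column totals (adjusted p = 0.0561).

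**Figure D1:**
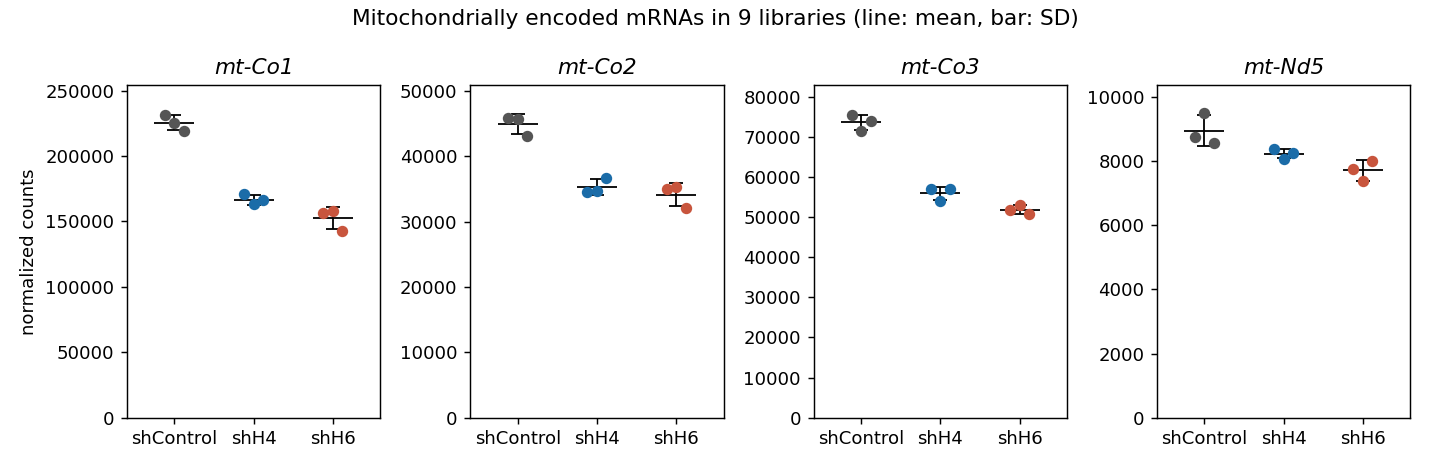
Normalized counts (vertical axes, each from 0) of mt-Co1, mt-Co2, mt-Co3 and mt-Nd5 in the 3 libraries of each group (points), with the group mean (line) and SD (bar). The 6 KD libraries lie below the 3 shControl libraries in every panel, with the widest separation for mt-Co1 and mt-Co3 and the narrowest for mt-Nd5.

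The 3 complex IV mRNAs fell further than mt-Nd5, the single listed mRNA of another complex, so the proportions among these 4 of 13 mitochondrial mRNAs differed between groups. There were 26.3, 23.7 and 25.6 mt-Co1 counts per mt-Nd5 count in the shControl libraries, 20.4, 20.2 and 20.1 in shH4, and 20.2, 21.5 and 17.9 in shH6. The ratio was 25.2 ± 1.34 in shControl against 20.2 ± 0.142 and 19.8 ± 1.85 in the KD lines (SD, n = 3), and no KD library reached the lowest control. By contrast, the ratio of mt-Co3 to mt-Co2 was 1.64 ± 0.0735, 1.59 ± 0.0521 and 1.52 ± 0.055, with overlapping libraries in shControl and both KD groups. The ratio of mt-Co1 to mt-Co2 was 5.02 ± 0.0721, 4.73 ± 0.201 and 4.47 ± 0.00862, and its highest shH4 library came close to the lowest control. Ratios within a library do not depend on how libraries were scaled, and these were described without a test.

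Per kilobase of transcript, mt-Co1, mt-Co3 and mt-Co2 were the 3 highest of the 59 members in shControl, at 145800, 93910 and 65650 normalized counts per kb. The next was Cox4i1, the highest of the nuclear-encoded members, at 11870 per kb. mt-Nd5 stood at 4905 ± 267 per kb, between Atp5e at 5128 ± 51.1 and Cox7b at 4082 ± 34.8 (SD, n = 3), and its interval overlapped that of Atp5e. The lowest members were the assembly factors Cox10, Cox11 and Ndufaf4, at 102, 96.5 and 89.5 per kb, and the SD range of Cox11 overlapped those of Cox10 and Ndufaf4.

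The nuclear-encoded members as a whole did not move with the mitochondrial mRNAs. With both hairpins, 34 of 55 were higher than control and 21 were lower, that is 61.8% higher, where 51.2% of all 5301 listed genes were higher. Their log2 fold changes had a median of 0.15 with shH4 and 0.14 with shH6, beside 0.096 and 0.088 over all listed genes and -0.37 and -0.45 for the 4 mitochondrial mRNAs. With upper quartile scaling the nuclear-encoded medians were 0.093 and 0.084, beside 0.034 and 0.036 over all listed genes. The mitochondrial median lay 0.53 (shH4) and 0.59 (shH6) log2 units below the nuclear one, a difference that rescaling whole libraries leaves in place. Taken as summed values, the distance was smaller, 0.41 and 0.52.

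Library by library, the 4 mitochondrial mRNAs summed to 3.38, 3.36 and 3.26 times the 55 nuclear-encoded ones in shControl, 2.54, 2.44 and 2.54 times in shH4, and 2.36, 2.36 and 2.27 times in shH6. The 3 groups did not overlap. The mitochondrial mRNAs held 2.59% ± 0.063 of the column total in shControl, 1.99% ± 0.0606 in shH4 and 1.86% ± 0.0624 in shH6, while the nuclear-encoded members held 0.778% ± 0.00724, 0.795% ± 0.0064 and 0.8% ± 0.00964 (SD, n = 3). The summed nuclear-encoded values themselves overlapped, at 106818, 104846 and 105838 normalized counts in shControl, 106481, 106360 and 105499 in shH4, and 106272, 107880 and 103016 in shH6. The column total, which covers the listed genes only, was lower in each KD library, from 13575882 to 13636409 in shControl, 13257098 to 13497085 in shH4 and 13053037 to 13355352 in shH6.

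At an adjusted p-value under 0.05, 58 of the 59 members were called in shH4 (limma), 34 higher and 24 lower. Of all listed genes, 95.7% were called in that comparison, 49.2% higher and 46.5% lower. In shH6, 56 members were called, 31 higher and 25 lower, where the background was 96.1%, with 49.1% higher and 46.9% lower. With upper quartile scaling, 24 members were called higher and 25 lower in shH4 (38.5% and 48.6% of all listed genes), and 23 and 25 in shH6 (40.2% and 48.6%), so the excess of higher calls depended on the scale. The total shares were close to the background, and since both comparisons use the same shControl libraries they are not independent of each other. The members that missed the threshold were Uqcrh in shH4 (adjusted p = 0.0507) and Ndufaf2, Timm8a1 and Tomm70a in shH6 (0.179, 0.0536 and 0.0521). The calls of 43 of the 59 members in shH4 and 46 in shH6 held whichever single library was left out, where 78.8% and 80.5% of all listed genes kept theirs.

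**Figure D2:**
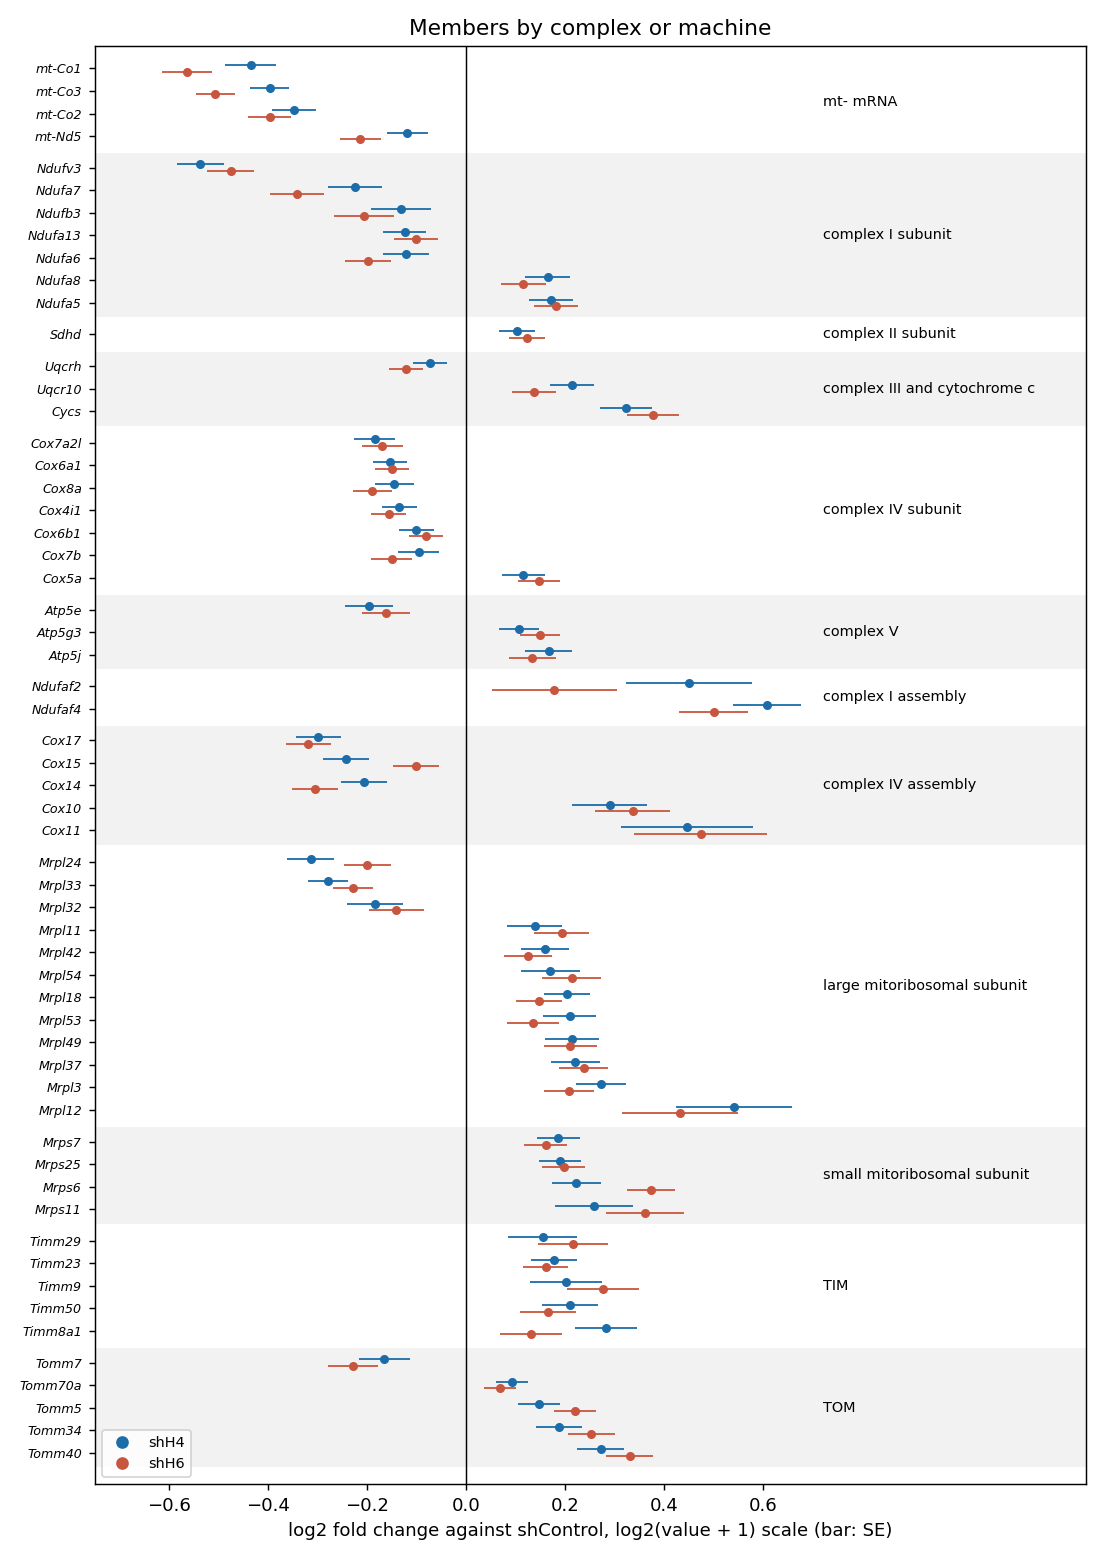
Log2 fold change against shControl on the log2(value + 1) scale (horizontal axis) of 58 of the 59 members, grouped by complex or machine, for shH4 (blue) and shH6 (red), with the SE as a bar. The mitochondrial mRNAs and most subunits of complexes I and IV lie left of 0, and most mitochondrial ribosomal proteins and translocases lie right of it.

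The counts of higher and lower genes are given by what the proteins do. Of the 22 nuclear-encoded structural subunits of complexes I to V and cytochrome c, 8 were higher and 14 lower with both hairpins. Of the 16 mitochondrial ribosomal proteins (Mrpl and Mrps genes), 13 were higher and 3 lower. Of the 10 translocase components, 9 were higher and 1 lower. The median log2 fold changes of the 3 groups were -0.098, 0.20 and 0.18 in shH4 and -0.12, 0.20 and 0.19 in shH6. The 7 assembly factors were split, 4 higher and 3 lower. How far these splits exceed those of other gene groups was not tested.

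**Figure D3:**
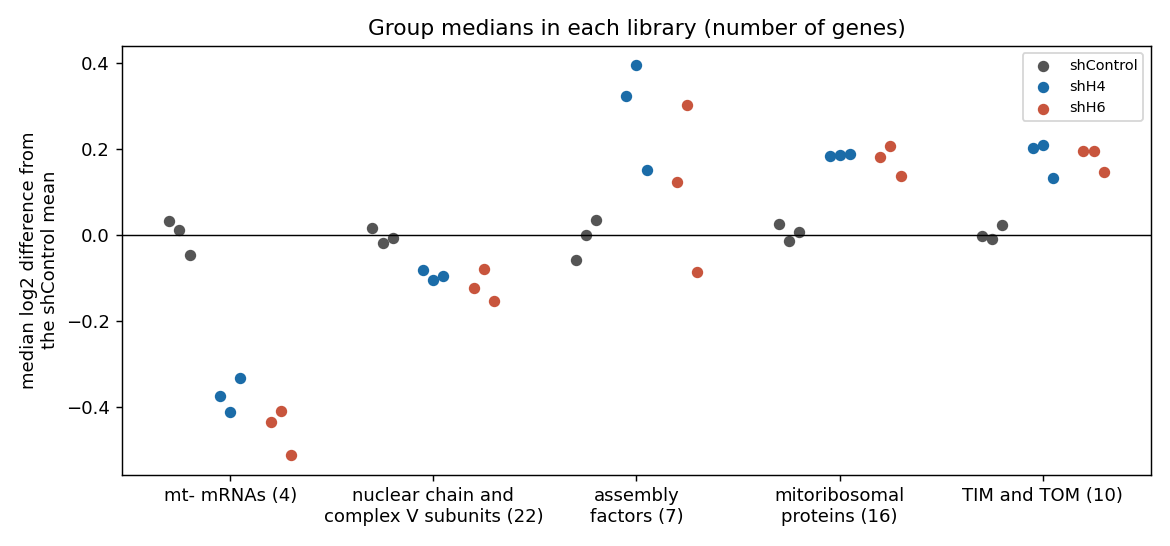
Median over the genes of a group of the log2 difference from the shControl mean (vertical axis) in each library (points, coloured by group of libraries), for the mitochondrial mRNAs and the 4 classes of nuclear-encoded members. All 6 KD libraries lie below control for the mitochondrial mRNAs and the structural subunits and above control for mitochondrial ribosomal proteins and translocases, while the assembly factors spread widely, with shH6 replicate 3 below control.

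Complex I, the NADH dehydrogenase through which most electrons enter the chain, had 8 of its 38 annotated structural subunits in the table, 6 lower and 2 higher. Ndufv3, an accessory subunit of the NADH-oxidizing arm, was at 2438, 2321 and 2325 normalized counts in shControl, 1524, 1620 and 1746 in shH4, and 1695, 1726 and 1672 in shH6. It was the nuclear-encoded member that fell furthest, with a wide gap between control and both KD groups and overlapping hairpins. The changes were -0.54 ± 0.047 and -0.48 ± 0.047 (limma, adjusted p = 9.59e-08 and 3.31e-07).

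Ndufa7, another accessory subunit, was at 1671, 1519 and 1554 in shControl, 1299, 1410 and 1352 in shH4, and 1248, 1336 and 1162 in shH6, or -0.22 ± 0.055 and -0.34 ± 0.055 (limma, adjusted p = 0.00143 and 4.15e-05). Ndufa5, by contrast, was higher, at 893, 895 and 878 in shControl, 984, 1000 and 1019 in shH4, and 1020, 1013 and 990 in shH6 (0.17 ± 0.045 and 0.18 ± 0.045, limma, adjusted p = 0.00226 and 0.00146). Both genes separated KD from control in all libraries. Ndufa8 was the other subunit that rose, while Ndufa6, Ndufa13 and Ndufb3 fell by 0.12 to 0.13 in shH4 and by 0.10 to 0.21 in shH6. These last changes were small: the shH4 calls of Ndufa6, Ndufa13 and Ndufb3 were each lost without at least 1 library, as was the shH6 call of Ndufa8 without shH6 replicate 3 (0.070, adjusted p = 0.127) and that of Ndufa13 without shControl replicate 3 (-0.061, adjusted p = 0.218).

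Both Ndufaf genes in the table, which serve complex I assembly, lay above control on average. Ndufaf4, which acts in building the arm that binds the quinone, showed the largest increase of all 59 members, from 316, 325 and 333 in shControl to 539, 469 and 480 in shH4 and 438, 474 and 468 in shH6. The changes were 0.61 ± 0.069 and 0.50 ± 0.069 (limma, adjusted p = 1.49e-06 and 1.05e-05), and no KD library was near control. Ndufaf2, a late-acting assembly factor, was at 140, 148 and 154 in shControl and 201, 202 and 202 in shH4. In shH6 it was at 197, 184 and 128, so that replicate 3 lay below every control library. The change was 0.45 ± 0.13 in shH4 (limma, adjusted p = 0.00376) and 0.18 ± 0.13 in shH6 (adjusted p = 0.179), and it was 0.36 in shH6 without replicate 3 (adjusted p = 0.003). Thus 1 library decided the shH6 value of Ndufaf2.

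Complex II was represented by Sdhd alone, the membrane anchor subunit of succinate dehydrogenase, at 4742, 4635 and 4763 in shControl, 5124, 5209 and 4850 in shH4, and 5201, 5231 and 4973 in shH6. All KD libraries were above control, by 0.10 ± 0.036 and 0.12 ± 0.036 (limma, adjusted p = 0.0143 and 0.00477), and the shH4 call was lost without shH4 replicate 2 (0.081, adjusted p = 0.0643). Upper quartile scaling ended both calls of Sdhd, with 0.041 in shH4 and 0.072 in shH6 (limma, adjusted p = 0.277 and 0.0694). Among complex III genes, the subunit Uqcr10 was higher, from 2380, 2215 and 2366 to 2745, 2687 and 2635 in shH4 and 2631, 2643 and 2385 in shH6 (0.21 ± 0.045 and 0.14 ± 0.045, limma, adjusted p = 0.000464 and 0.0089). With upper quartile scaling the shH6 call of this complex III gene was lost (0.086, limma, adjusted p = 0.0812). The hinge subunit Uqcrh, the most abundant of these per kilobase, was at 3817, 3762 and 3682 in shControl, 3544, 3554 and 3603 in shH4, and 3436, 3554 and 3363 in shH6, with changes of -0.073 ± 0.035 and -0.12 ± 0.035, of which the second passed the test (limma, adjusted p = 0.0507 and 0.00386).

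Cycs encodes cytochrome c, the mobile carrier between complexes III and IV, and it rose most among the structural genes. Its libraries read 1914, 1866 and 1912 in shControl, 2619, 2294 and 2227 in shH4, and 2414, 2594 and 2395 in shH6, without overlap between control and KD. The changes were 0.32 ± 0.052 and 0.38 ± 0.052 (limma, adjusted p = 5.03e-05 and 1.07e-05).

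Complex IV, cytochrome c oxidase, had 7 nuclear-encoded genes of this class in the table, and 6 of them were lower. Cox7a2l, which is also known as a supercomplex assembly protein, was at 3258, 2994 and 3025 in shControl, 2633, 2751 and 2774 in shH4, and 2702, 2853 and 2694 in shH6 (-0.18 ± 0.042 and -0.17 ± 0.042, limma, adjusted p = 0.00079 and 0.00143). Cox6a1 was at 4365, 4256 and 4352 in shControl, 3827, 3965 and 3868 in shH4, and 3922, 4000 and 3780 in shH6 (-0.15 ± 0.034 with each hairpin, limma, adjusted p = 0.000766 and 0.000923). Cox8a was at 5437, 5229 and 5283 in shControl, 4710, 4880 and 4836 in shH4, and 4760, 4849 and 4387 in shH6 (-0.14 ± 0.039 and -0.19 ± 0.039, limma, adjusted p = 0.00281 and 0.000365). In all 3 genes the KD libraries lay below the lowest control, and the hairpins overlapped.

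Cox4i1, the subunit 4 isoform of most tissues and the most abundant nuclear-encoded member per kilobase, was at 9129, 8670 and 9094 in shControl, 7927, 8187 and 8376 in shH4, and 8214, 8126 and 7791 in shH6. It fell by 0.14 ± 0.036 and 0.16 ± 0.036 on the log2 scale (limma, adjusted p = 0.00242 and 0.000812). Cox6b1 and Cox7b were lower too, the first by 0.10 (shH4) and 0.081 (shH6) and the second by 0.096 and 0.15. Both shH4 calls were lost without shH4 replicate 2, where Cox6b1 was at -0.079 (adjusted p = 0.0602) and Cox7b at -0.066 (adjusted p = 0.159), and that of Cox7b also without each control library or shH4 replicate 3. The shH6 call of Cox6b1 was lost without shControl replicate 1, shControl replicate 2 or shH6 replicate 1 (-0.072 to -0.070, adjusted p from 0.1 to 0.113). Column total scaling (-0.040, limma, adjusted p = 0.292) and a block by replicate number (-0.081, adjusted p = 0.0501) ended that call too. Cox5a, a subunit on the matrix side, was the one subunit that rose, from 1915, 2040 and 1973 to 2228, 2156 and 2038 in shH4 and 2240, 2206 and 2119 in shH6. Its shH4 libraries overlapped control, and the shH4 change of 0.12 ± 0.043 (limma, adjusted p = 0.0183) was lost without shControl replicate 1 (0.093, adjusted p = 0.078) or shH4 replicate 1 (0.086, adjusted p = 0.0891). With upper quartile scaling that change was 0.054 (limma, adjusted p = 0.232).

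Assembly of complex IV needs copper and heme A, and the 5 assembly genes with a Cox symbol in the table divided. Cox17, which carries copper to the enzyme, was lower, at 1916, 1772 and 1855 in shControl, 1444, 1558 and 1506 in shH4, and 1489, 1518 and 1437 in shH6 (-0.30 ± 0.045 and -0.32 ± 0.045, limma, adjusted p = 2.41e-05 and 1.22e-05). Cox11, which delivers copper to the site in the mt-Co1 protein, was higher, at 112, 117 and 125 in shControl, 151, 167 and 166 in shH4, and 129, 204 and 169 in shH6 (0.45 ± 0.13 and 0.47 ± 0.13, limma, adjusted p = 0.00559 and 0.0037). No KD library of either gene reached the control range, but the shH6 libraries of Cox11 were far apart, and with library weights its shH6 change was 0.25 (adjusted p = 0.0571).

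The heme A genes also parted. Cox10, which makes heme O, rose from 282, 303 and 302 to 371, 389 and 329 in shH4 and 377, 365 and 379 in shH6 (0.29 ± 0.075 and 0.34 ± 0.075, limma, adjusted p = 0.0022 and 0.000711). Cox15, which turns heme O into heme A, was lower, from 985, 1053 and 1038 to 856, 868 and 876 in shH4 and 935, 965 and 966 in shH6 (-0.24 ± 0.047 and -0.10 ± 0.047, limma, adjusted p = 0.000235 and 0.047). The shH6 call of Cox15 was lost in 7 of the 9 fits that left out a library, with values from -0.11 to -0.082. A block by replicate number (limma, adjusted p = 0.053) and the fit of the 2 groups alone (adjusted p = 0.0542) also ended it. With column total scaling the shH6 change of Cox15 was -0.060 (adjusted p = 0.22). Cox14, which acts on newly made mt-Co1 protein, fell by 0.21 and 0.31. It was among the members in which the 3 shH6 libraries (789, 804 and 791) lay below the 3 shH4 libraries (861, 851 and 841).

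Of complex V, the ATP synthase, 3 of 17 annotated genes were in the table. Atp5e, the epsilon subunit of the rotor stalk, was at 2180, 2137 and 2159 in shControl, 1781, 1875 and 2006 in shH4, and 1971, 2005 and 1817 in shH6 (-0.20 ± 0.048 and -0.16 ± 0.048, limma, adjusted p = 0.00148 and 0.00492). Atp5j, of the peripheral stalk, and Atp5g3, a gene for the c subunit of the membrane ring, were higher, the first by 0.17 ± 0.047 (shH4) and 0.13 ± 0.047 (shH6) and the second by 0.11 ± 0.040 and 0.15 ± 0.040 (limma, adjusted p from 0.00264 to 0.0196). Without shH4 replicate 1, the shH4 change of Atp5g3 was 0.066 (adjusted p = 0.125), and without shControl replicate 3 the shH6 change of Atp5j was 0.10 (adjusted p = 0.078). The lowest shH6 library of Atp5j (1791) also lay just under the highest control (1792).

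The counts of called structural subunits depended on the scale. As deposited, shH4 had 8 called higher and 13 lower, and shH6 had 8 and 14, where 49.2% and 46.5% (shH4) and 49.1% and 46.9% (shH6) of all listed genes were called higher and lower. When each library was scaled to its column total, 8 were called higher and 8 lower in shH4, and 8 and 12 in shH6, beside 50.4% and 43.3% (shH4) and 50.9% and 42.8% (shH6) of all listed genes. With the upper quartile of the listed genes as the scale, shH4 had 5 higher and 14 lower, and shH6 had 4 and 14, beside 38.5% and 48.6% (shH4) and 40.2% and 48.6% (shH6) of all listed genes.

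The mitochondrial ribosome, which translates only the mRNAs of mitochondrial DNA, showed the opposite balance. All 16 listed Mrpl and Mrps genes were called with both hairpins, as were 91.8% of all listed genes. With upper quartile scaling, 10 were called higher and 3 lower with each hairpin, and the calls lost were those of Mrpl11, Mrpl42 and Mrpl54 in shH4 and Mrpl18, Mrpl42 and Mrpl53 in shH6. Mrpl12, a protein of the factor-binding stalk, changed most. It was at 917, 1446 and 1145 in shControl, 1713, 1639 and 1666 in shH4, and 1501, 1366 and 1821 in shH6. Its control libraries were widely spread, and the lowest shH6 library lay below the highest control. The changes were 0.54 ± 0.12 and 0.43 ± 0.12 (limma, adjusted p = 0.000574 and 0.00275), and the second was 0.27 without shControl replicate 1.

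Other genes of the large subunit moved less but more evenly. Mrpl37 was at 721, 737 and 694 in shControl, 846, 847 and 816 in shH4, and 827, 851 and 859 in shH6 (0.22 ± 0.049 and 0.24 ± 0.049, limma, adjusted p = 0.000752 and 0.000405). Mrpl3, Mrpl11, Mrpl18, Mrpl42, Mrpl49, Mrpl53 and Mrpl54 were higher by 0.14 to 0.27 in shH4 and by 0.13 to 0.21 in shH6. Their KD libraries lay above control in each of these 7 genes, where 86.4% of all listed genes had both KD groups apart from control. The smaller of these calls did not hold when single libraries were left out, as for Mrpl54 in shH4 without shControl replicate 2 (0.11, adjusted p = 0.0924), Mrpl11 in shH4 without shH4 replicate 3 (0.11, adjusted p = 0.0927), and Mrpl42 and Mrpl53 in shH6 without shH6 replicate 2 (0.096 and 0.12, adjusted p = 0.0964 and 0.0668).

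The 3 large-subunit genes that fell did so in every KD library. Mrpl33, which had the highest level per kilobase of the 16, was at 1550, 1525 and 1573 in shControl, 1281, 1273 and 1275 in shH4, and 1350, 1316 and 1299 in shH6 (-0.28 ± 0.040 and -0.23 ± 0.040, limma, adjusted p = 1.56e-05 and 9.56e-05). Mrpl24 was at 1982, 1879 and 1948 in shControl, 1539, 1598 and 1536 in shH4, and 1709, 1783 and 1572 in shH6 (-0.31 ± 0.047 and -0.20 ± 0.047, limma, adjusted p = 2.33e-05 and 0.00105). Mrpl32 fell by 0.18 and 0.14, and its shH6 call was lost without shH6 replicate 3 (-0.096, adjusted p = 0.114). That call was also lost without shControl replicate 1 or 2 (limma, adjusted p = 0.061 and 0.0833). Column total scaling (-0.099, adjusted p = 0.0947) and library weights (-0.076, adjusted p = 0.109) ended it as well.

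In the small subunit, which binds the mRNA, all 4 listed Mrps genes were higher. Mrps6 was at 788, 818 and 808 in shControl, 929, 921 and 967 in shH4, and 993, 1069 and 1066 in shH6, in 3 separate ranges (0.22 ± 0.049 and 0.37 ± 0.049, limma, adjusted p = 0.000663 and 6.11e-06). Mrps11 was at 493, 418 and 493 in shControl, 504, 615 and 562 in shH4, and 587, 621 and 592 in shH6 (0.26 ± 0.078 and 0.36 ± 0.078, limma, adjusted p = 0.00595 and 0.000567). Mrps25 rose by 0.19 ± 0.043 and 0.20 ± 0.043, and Mrps7 by 0.19 ± 0.043 and 0.16 ± 0.043 (limma, adjusted p from 0.000605 to 0.00277).

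Of the 10 listed TIM and TOM genes, 9 were higher. Tomm40, the pore of the outer membrane, was at 2156, 2160 and 2208 in shControl, 2556, 2879 and 2458 in shH4, and 2706, 2763 and 2732 in shH6 (0.27 ± 0.048 and 0.33 ± 0.048, limma, adjusted p = 0.000106 and 1.64e-05). Tomm34, a cytosolic partner of import, was at 1086, 1069 and 1111 in shControl, 1204, 1283 and 1233 in shH4, and 1235, 1308 and 1352 in shH6 (0.19 ± 0.047 and 0.25 ± 0.047, limma, adjusted p = 0.00174 and 0.000158). The small pore subunit Tomm5 rose by 0.15 and 0.22, and the receptor Tomm70a by 0.093 in shH4, with 0.069 in shH6 not passing the test. The shH4 call of Tomm70a was lost without shH4 replicate 1 (0.077, adjusted p = 0.0544) and with upper quartile scaling (0.032, adjusted p = 0.353), which also ended those of Tomm5 (0.086, adjusted p = 0.0596), Timm9 (0.14, adjusted p = 0.0763) and Timm29 (0.093, adjusted p = 0.209) in shH4 and of Timm50 in shH6 (0.11, adjusted p = 0.0659). Tomm7, also a small subunit of the pore complex, was the single translocase gene that fell, from 1505, 1498 and 1483 to 1287, 1379 and 1336 in shH4 and 1308, 1355 and 1173 in shH6 (-0.17 ± 0.051 and -0.23 ± 0.051, limma, adjusted p = 0.00688 and 0.000743).

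Of the inner membrane and intermembrane space, Timm9, one of the small chaperones that carry hydrophobic proteins, was at 480, 486 and 512 in shControl, 567, 621 and 516 in shH4, and 621, 622 and 550 in shH6 (0.20 ± 0.072 and 0.28 ± 0.072, limma, adjusted p = 0.0151 and 0.0022). Timm50, the receptor at the inner membrane channel, was at 920, 1029 and 1035 in shControl, 1149, 1223 and 1079 in shH4, and 1089, 1142 and 1110 in shH6 (0.21 ± 0.057 and 0.16 ± 0.057, limma, adjusted p = 0.00284 and 0.0119). Timm23, the channel itself, rose by 0.18 ± 0.046 and 0.16 ± 0.046 (limma, adjusted p = 0.0021 and 0.00378). The calls of Timm9 in shH4 without shH4 replicate 2 (0.14, adjusted p = 0.0946) and of Timm50 in shH6 without shControl replicate 1 (0.11, adjusted p = 0.0812) were lost. Timm29, of the carrier translocase, rose by 0.15 and 0.22, with shH4 libraries that overlapped control. Its shH4 call was lost in 5 of the 9 fits that left out a library, with the smallest value, 0.10, without shControl replicate 3 (adjusted p = 0.207). Its shH6 call was lost without shControl replicate 3 (0.16, adjusted p = 0.0551) and without shH6 replicate 2 (0.16, adjusted p = 0.051). Timm8a1, a partner of the small chaperones, rose by 0.28 in shH4 and stood at 0.13 in shH6 (adjusted p = 0.0536).

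The contrast between the hairpins takes no difference from shControl, although the control libraries enter the shared estimate of the spread and the table holds only genes that moved the same way with both. None of the 59 members passed an adjusted p-value of 0.05 (limma), where 8.26% of all listed genes did, and 10 members (16.9%) had an unadjusted p-value under 0.05, beside 1141 of all listed genes (21.5%). Resf1 itself was 0.19 ± 0.043 log2 units higher in shH6 than in shH4 (limma, adjusted p = 0.00984). The members nearest to the threshold were Mrps6, higher in shH6 by 0.15 (adjusted p = 0.0699), Cox15, higher by 0.14 (0.0766), and mt-Co3, lower by 0.11 (0.103). The mitochondrial mRNAs were 0.049 (mt-Co2) to 0.13 (mt-Co1) lower in shH6, and mt-Co1, mt-Co3 and mt-Nd5 each had all shH6 libraries below all shH4 libraries. None of these 4 differences passed the test (limma, adjusted p from 0.103 to 0.569). How many of all listed genes separate the hairpins in this way was not counted, so the order is description only. Over all 59 members, the largest difference in either direction was that of Ndufaf2, -0.27, which rested on shH6 replicate 3. A member that misses the threshold is not shown to respond alike to both hairpins.

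Some of these calls turned on the settings. With each library scaled to its column total, Mrps6 and Cox15 passed (adjusted p = 0.0489 and 0.0484). With library weights, Mrpl24 and mt-Co3 passed (0.0259 and 0.0363), and Mrpl24 also passed without shH6 replicate 3 (0.164 higher in shH6, adjusted p = 0.0276).

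Transcript length and abundance were compared because they varied with direction across the table. The listed protein-coding genes were cut into 4 equal classes by length. In the shortest class (up to 1885 bases) 41% were higher in both KD lines, then 48.1%, 56% and 64.9%. The median length was 748.5 bases for the structural subunits, 1273 for the mitochondrial ribosomal proteins and 1468 for the translocases, against 3006 for all listed protein-coding genes. Within the shortest class, the 21 structural subunits divided into 7 higher and 14 lower, close to the 478 higher and 688 lower of all 1166 listed genes of that length. The 11 mitochondrial ribosomal proteins of the same length class divided into 9 higher and 2 lower. In GC content, the 4 classes from lowest to highest held 57.9%, 58.3%, 47.9% and 45.8% higher genes, and the structural subunits had a median GC content of 52.5% and the ribosomal proteins of 49.7%. By level, higher genes made up 34.4%, 52.1%, 60.1% and 63.3% of the 4 classes from lowest to highest. The structural subunits had a median of 2385 normalized counts, which lies in the top class, and the ribosomal proteins of 1076, in the class below it. The part of length, GC content and level in the directions of these genes was not tested.

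**Figure D4:**
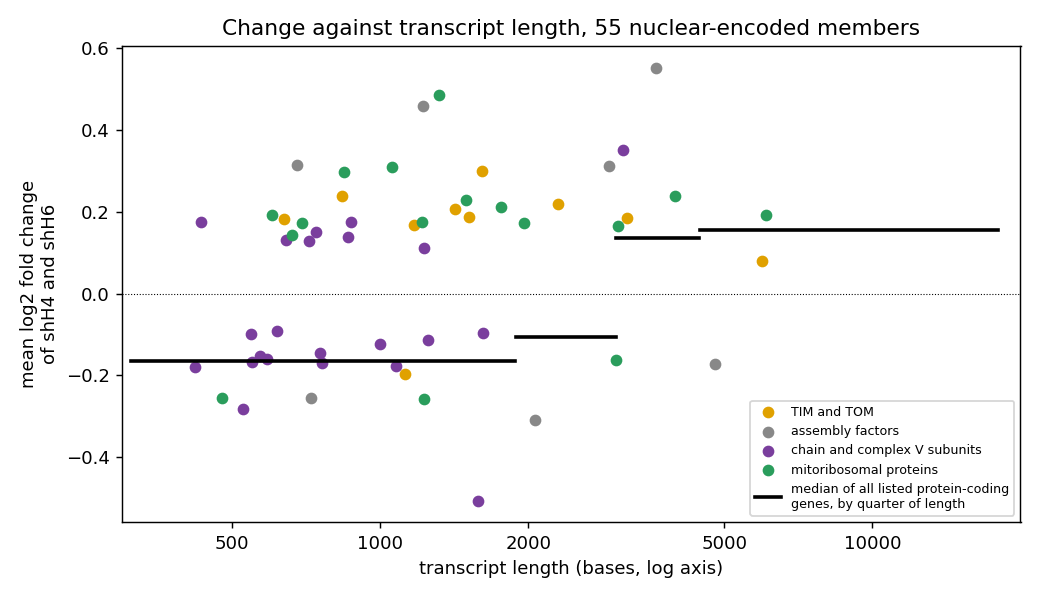
Mean log2 fold change of shH4 and shH6 against shControl (vertical axis) against transcript length in bases (horizontal log axis) for the 55 nuclear-encoded members, coloured by class, with the median of all listed protein-coding genes in each of the 4 length classes as a black bar. Most structural subunits and most mitochondrial ribosomal proteins are no longer than 1885 bases. The structural subunits lie largely below 0 and the ribosomal proteins largely above it, and the part of length in this was not tested.

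Nuclear genes for mitochondrial proteins are known to share promoter elements bound by NRF1, by ETS factors of the GABP family and by YY1. RefSeq promoter windows of 250 bases before to 50 bases after the start site (GRCm38.p6) were found for 50 of the 55 nuclear-encoded members, in 54 windows. Cox17, Cox4i1, Mrpl54 and Tomm7 were among those with no entry. Each window was searched on both strands for GCGCATGC (NRF1), CCGGAAG (ETS), AAGATGGC (YY1) and CACGTG, the E-box, which serves MYC among other factors. The ETS letters occurred in 35.2% of the members' windows, in 17.4% of the windows of listed protein-coding genes and in 8.86% of all promoters. Of the 18 members with the ETS letters, 10 were higher and 8 lower in both KD lines. The NRF1 letters occurred in 13% of the members' windows, 5.58% of listed ones and 2.71% of all. The E-box was in 11.1%, 9.95% and 7.15%.

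The YY1 letters were unevenly spread among the members. They occurred in 6 of 15 windows of mitochondrial ribosomal genes (40%) and in 1 of 23 windows of structural subunits (4.35%), beside 4.6% of listed and 2.75% of all promoters. Of the 9 members with a match, 8 were higher in both KD lines, and Mrpl32 was the exception. Of all 50 members with a window, 33 were higher and 17 lower. The directions of other listed genes with the YY1 letters were not examined, and no link between the letters and direction was tested. The matches that lie far enough inside the window are shown with 11 bases on each side, because these letters were found more often among the mitochondrial ribosomal genes than among the structural subunits, a difference that was not tested. The letters searched for are in capitals, read on the strand that holds them.
Mrpl37 (chr4:107066822-107066851, minus strand): ctgcacgggcaAAGATGGCggcgtccaggt
Mrpl42 (chr10:95501904-95501933, minus strand): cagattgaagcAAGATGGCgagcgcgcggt
Mrpl49 (chr19:6057721-6057750, minus strand): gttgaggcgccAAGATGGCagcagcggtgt
Mrps7 (chr11:115604147-115604176, plus strand): tgacagcggccAAGATGGCtgcccccgcgc
Mrps11 (chr7:78783013-78783042, minus strand): gggaagacagaAAGATGGCggcgcccgtag
Timm50 (chr7:28312017-28312046, minus strand): ggcgtcagcgcAAGATGGCggcctcggcgg
Cox10 (chr11:64079433-64079462, minus strand): ggcgggctagcAAGATGGCggcgcccagga
Atp5j (chr16:84835046-84835075, minus strand): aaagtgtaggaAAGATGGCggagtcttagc
In 6 of the 8, the match lay 12 to 28 bases after the annotated start site. In Mrpl49, Mrps7 and Timm50 the ATG inside it was also the annotated start codon, so that these letters are part of the coding sequence too. In Mrps11 and Atp5j it lay 107 and 88 bases before the start site.

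The NRF1 letters were found in 7 members of either direction. They are shown for 3 that rose and 2 that fell, since the same letters stood in front of genes that moved oppositely.
Cycs (chr6:50566611-50566640, plus strand): ggtttgtgcgcGCGCATGCgagctagcatg
Ndufa8 (chr2:36049328-36049357, plus strand): cggtaccatctGCGCATGCgtctccagcga
Ndufaf4 (chr4:24897959-24897988, plus strand): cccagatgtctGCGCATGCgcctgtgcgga
Ndufa6 (chr15:82354356-82354385, plus strand): ggctctgcaatGCGCATGCtctaccgcgga
Mrpl33 (chr5:31613928-31613957, plus strand): taccggaacccGCGCATGCcccggaagtag
Cycs, Ndufa8 and Ndufaf4 rose, whereas Ndufa6 and Mrpl33 fell, as did Cox6a1 and Mrpl32, the remaining genes with a match. Where the letters run on as GCGCATGCGC, as in Ndufaf4, both strands match over almost the same bases. A match is a run of letters in a window and not evidence of binding, and the absence of one says nothing about the factor.

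The genes that regulate mitochondrial biogenesis were taken from a list of 26, of which 11 were in the table, 8 higher and 3 lower in both KD lines. All 11 were called with both hairpins (limma), beside 91.8% of all listed genes. The median over the 11 was 0.20 with shH4 and 0.21 with shH6 on the log2 scale. Pprc1, a coactivator of the PGC-1 family, went from 625 ± 87.7 normalized counts to 897 ± 26.4 with shH4 and 949 ± 208 with shH6 (SD, n = 3), a rise of 0.53 and 0.59. The nuclear receptor Esrra fell from 1133 ± 39.8 to 929 ± 38.5 and 923 ± 29.4. Top1mt, the mitochondrial DNA topoisomerase, fell by 0.30 and 0.47, and Mterf2, of the mitochondrial transcription termination factor family, by 0.28 and 0.27. Among the factors whose motifs were searched, and named here for that reason, Nrf1 rose by 0.32 and 0.25, Yy1 by 0.11 and 0.19, and the GABP subunits Gabpb1 and Gabpb2 by 0.28 and 0.27 in shH4 and 0.21 and 0.30 in shH6. Polrmt, the RNA polymerase of mitochondria, named after its values were seen, was 0.20 and 0.19 higher (limma, adjusted p = 0.00946 and 0.0134), while the 4 mRNAs it transcribes were lower. Polg, the mitochondrial DNA polymerase, was the one gene of this list that differed between the hairpins, by 0.13 more in shH6 (limma, adjusted p = 0.0412).

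Of 35 genes for the processing, stability and translation of mitochondrial RNA, 11 were in the table, 6 higher and 5 lower. The RNA-binding proteins Fastkd2, Fastkd5 and Fastkd3 rose by 0.33, 0.49 and 0.25 with shH4 and by 0.32, 0.29 and 0.28 with shH6, and Aurkaip1, a protein of the mitochondrial small ribosomal subunit, fell by 0.40 and 0.30. Of 35 further assembly factors of the chain, 10 were listed, 4 higher and 6 lower, with medians of -0.27 and -0.20. Surf1, an assembly factor of complex IV, fell by 0.36 and 0.46, Tmem70, of complex V, by 0.26 and 0.26, and Nubpl, which supplies iron-sulfur clusters to complex I, by 0.31 and 0.22, whereas Coa7 rose by 0.27 and 0.32. Pet100, another complex IV factor, differed between the hairpins by 0.33 (limma, adjusted p = 0.0277) and was named for that. Of 29 import, chaperone and protease genes, 8 were listed, 5 higher and 3 lower. The higher ones included Hspd1, the matrix chaperonin (0.19 and 0.15), Phb2 (0.18 and 0.15), Dnajc15 (0.15 and 0.25) and Immt (0.12 and 0.12). The lower ones, named after their values were seen, were the protease Oma1 (-0.36 and -0.12), the import motor chaperone Hspa9 (-0.070 and -0.084) and Pmpca, of the presequence peptidase (-0.081 and -0.12). Oma1 in shH6 and Hspa9 in shH4 did not pass the test (limma, adjusted p = 0.159 and 0.0608).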

How the data were processed

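RNA-seq of total RNA (stranded library kit, 9 libraries, 3 per group by the labels) was analysed from the authors' table. Per the submitters' processing notes, reads were aligned with STAR 2.7.8a in Partek to mm39 and DESeq2 was used. The study's methods describe RNA-seq with median ratio normalization and a threshold of 0.05 on the FDR, in a passage that names a human build. Whether that threshold selected the listed genes is not stated. Annotation, counting and use of strand are not given in the sources used here. What the authors deposited is a signal for each gene: normalized counts, that is, read counts over a library's size factor, and not raw counts. Size factors read from the steps of low values ran from 0.802 (shH6 replicate 3) to 1.46 (shControl replicate 1), and 74.2 to 78.2% of low values (above 0 and under 150 normalized counts) came within 0.05 of a whole read, too few for a count-based test. Depth sets a floor on precision, and the spread between dishes exceeded it.

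limma 3.58.1 under R 4.3.3 was run on log2(value + 1) (group means, empirical Bayes with a trend, all 9 libraries, Benjamini-Hochberg over 5301 genes, no filter). Fold changes on this scale understate those of low genes. The fit was tested on simulated data. All value columns matched a sample (0 left over). Gene coordinates and lengths came from GENCODE M21 (GRCm38) and promoters from RefSeq (GRCm38.p6), neither being the build of the alignment. Length was the median over a gene's best-ranked APPRIS principal transcripts.

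The members and gene lists were chosen with earlier results of these data known. By rule, the text gave values for each mitochondrial mRNA, up to 3 members per class by the smaller of the hairpins' changes, the most abundant per kilobase and those nearest the threshold between hairpins, named the other members with ranges, and named up to 4 genes per other list. Genes of those lists beyond 4, and fuller values for other members, were added after the values were seen. The values of 1 member are not reported here, though it is in the counts. Alternatives were a pseudocount of 5, a filter of 10 normalized counts, fits restricted to each pair of groups, a block by replicate number, 3 other scalings, library weights, summed values and leaving out each library.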

Additional observations from a re-analysis of the deposited data

How the results depend on the processing

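No member changed direction against shControl in any alternative run, and 34 of 55 nuclear-encoded members stayed higher in each. Between 51 and 59 members were called in shH4 and between 50 and 56 in shH6 when 1 library was left out (87.9 to 97% and 88.4 to 95.9% of all listed genes). In the same fits, 0 to 1 were called between the hairpins, beside 5.41 to 7.96% of all listed genes. The 1 was Mrpl24 without shH6 replicate 3, where 7.49% of all listed genes were called. Between the hairpins, 2 were called with column total scaling and 2 with library weights (8.56% and 12.9% of all listed genes). With upper quartile scaling, the nuclear-encoded median was 0.0934 (shH4) and 0.0836 (shH6) and the mitochondrial median -0.433 and -0.503. The nuclear-encoded median in shH6 was 0.177 with column total scaling and 0.166 with column totals that left out the mitochondrial mRNAs. From summed values, the mitochondrial minus nuclear-encoded difference was -0.41 (shH4) and -0.518 (shH6). These shifts follow from the scale or the weighting by level. Upper quartile scaling lowered the nuclear-encoded genes called higher from 34 to 24 in shH4 and from 31 to 23 in shH6, while the share of all listed genes called higher went from 49.2 to 38.5% and from 49.1 to 40.2%. With the replicate number as a replicate block, 58 members were called in shH4, 55 in shH6 and 0 between hairpins (95.3%, 95.7% and 7.64% of all listed genes). Samples with the same number did not deviate together (correlations of -0.155 to 0.108), so the numbers were not taken as pairs. Depth limited Cox11 and Ndufaf2 most, 1 of which was the lowest member of each library at 99 to 175 reads. The rest of the annotated machinery was not analysed here.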

Other observations

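Of 25 genes of the tricarboxylic acid cycle and pyruvate entry, 9 were in the table, 4 higher and 5 lower in both KD lines. All 9 were called with both hairpins (limma), as were 91.8% of all listed genes. Pcx, which makes oxaloacetate from pyruvate, went from 713 ± 8.25 normalized counts to 433 ± 52.3 with shH4 and 436 ± 28.9 with shH6 (SD, n = 3), a fall of 0.73 and 0.71 on the log2 scale. Pdk2, a kinase that restrains pyruvate dehydrogenase, fell from 88.8 ± 15.9 to 64.6 ± 6.36 and 58.0 ± 10.9. Idh3a, the catalytic subunit of the NAD-dependent isocitrate dehydrogenase, rose by 0.27 and 0.21, and Pdhx, of the pyruvate dehydrogenase complex, by 0.24 and 0.21.

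Of 20 glycolysis genes, 8 were listed, 3 higher and 5 lower. All 8 were called with both hairpins (limma), as were 91.8% of all listed genes. Aldoc, an aldolase, fell from 438 ± 41.1 to 195 ± 23.3 and 233 ± 15.7 normalized counts, and Slc16a3, a lactate exporter, from 1238 ± 30.9 to 710 ± 26.7 and 764 ± 28.1 (SD, n = 3). Of the phosphofructokinase genes, Pfkl rose by 0.27 and 0.33, Pfkm fell by 0.24 and 0.32, and Pfkp, named after its values were seen, fell by 0.21 and 0.10. As with the respiratory genes, presence in the table already implied a difference from control, so these counts describe direction only.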
